A study of Mus musculus with 10 samples.

Results

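The genes described here encode the subunits of the mitochondrial respiratory chain and of ATP synthase. They were chosen by name among the protein-coding genes of GRCm38, as those whose symbols begin with Ndufa, Ndufb, Ndufc, Ndufs or Ndufv and a number, with Uqcr, with Cox4 to Cox8 or with Atp5, together with Sdha, Sdhb, Sdhc and Sdhd. This gave 87 of 21900 protein-coding genes. Of these, 80 had at least 1 accessible region that overlapped the gene or lay within 1 kb of it, and together they held 127 of the 77076 regions in the deposited table. The number of genes was 40 for complex I, 4 for complex II, 8 for complex III, 18 for complex IV and 17 for complex V.

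Chromatin accessibility was measured by ATAC-seq, in which a transposase cuts and tags DNA that is not covered by nucleosomes. Regulatory T (Treg) cells came from mouse mixed bone marrow chimeras, hosts rebuilt with marrow of more than 1 donor, and were sorted out of spleen and lymph nodes. The 4 groups were WT cTreg and WT eTreg with 3 libraries each, and FntbKO cTreg and FntbKO eTreg with 2 each, where cTreg and eTreg are the usual names of central and effector Treg cells. The label FntbKO names a loss of Fntb, which encodes the beta subunit of protein farnesyltransferase, which attaches a farnesyl lipid to proteins. The labels give neither the Cre driver of the deletion, nor the age of the mice, nor the host strain, nor whether cells of several mice were pooled. They also do not say that the libraries of a group came from separate mice, so p-values measure only the spread between these libraries.

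The respiratory chain passes electrons from NADH through complex I, and from succinate through complex II, to ubiquinone, then through complex III and cytochrome c to oxygen at complex IV. Complexes I, III and IV pump protons across the inner membrane, and complex V, the ATP synthase, uses their return to make ATP. All genes in this set are nuclear, and a further few subunits are encoded by mitochondrial DNA. Treg cells are known to rely on oxidative phosphorylation more than many activated T cells do.

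Library totals ran from 5058328 to 15328775 counts. On the first principal component, which held 32.6% of the variance, WT cTreg replicate 2 lay at 9.02, apart from -56.7 and -38.1 for the other WT cTreg libraries. FntbKO cTreg replicate 1 lay at -155, against -67.1 for replicate 2. As a check of the genotype labels, the region at the start of Fntb (chr12:76837192-76837915) fell by 1.46 on the log2 scale in FntbKO cTreg and by 1.71 in FntbKO eTreg. The edgeR quasi-likelihood test gave adjusted p-values of 6.34e-05 and 4.46e-05. Of the 11 regions at Fntb, 2 were called lower in FntbKO cTreg. In FntbKO eTreg 2 were called lower and 1 higher (chr12:76874004-76874477), the latter by 0.90 (edgeR adjusted p 0.0413). Between the WT subsets 4 Fntb regions were called lower in eTreg. All 6 Treg and T cell markers, among them Foxp3, Il2ra and Ctla4, had accessible regions. Among markers of other cells, no region was listed for Ms4a1 of B cells, Ncr1 of NK cells, Lyz2 and Csf1r of myeloid cells or Hbb-bt of red cells. Others on those lists had regions, the strongest at Klf1 with 14.5 CPM, Eomes with 13.4, Pax5 with 10.9 and Cebpa with 10.6. In the averaged comparisons the edgeR test called Cebpa regions higher in eTreg and lower in FntbKO, Cd8a, Cd8b1 and Gata1 regions lower in eTreg and a Pax5 region lower in FntbKO. The regions of the 4 other-cell lists averaged between 2.36 and 6.56 CPM (counts scaled to library size, as used throughout) per region in any library. The summed level of the CD8 T and NK list was 29.7 to 33.9 CPM in WT cTreg and 25.1 to 25.9 in WT eTreg. It was 30.5 to 35.8 CPM in FntbKO cTreg and 19.0 to 21.1 in FntbKO eTreg. The myeloid list summed to 27.6 to 38.4, 36.8 to 43.6, 21.3 to 21.6 and 27.1 to 30.5 CPM in the same order. The central Treg list summed to 1530 to 1694 CPM in WT cTreg and 1254 to 1415 in WT eTreg, and to 1766 to 1831 and 1587 to 1603 in the FntbKO groups. The effector list, at 466 to 496 CPM in WT eTreg and 469 to 505 in WT cTreg, did not separate the subsets. In the averaged subset comparison the edgeR test called 2 of its 33 regions higher in eTreg, both at Tigit. It called 4 lower, at Icos, Prdm1 and Tigit (18.2% called, against 11.0% of all regions). Of the 122 tested regions of the central list, 1 was called higher and 29 lower in eTreg (24.6%). The part of these lists in the results below was not tested.

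Most of these genes start at a region of their own or one shared with a neighbour, called the start region here. It is the region that overlaps the 300 bases around the gene's RefSeq start. For genes absent from the RefSeq promoter sequences it is the strongest region within 1 kb of a gene end, which gave a region for 13 genes. A start region was found for 78 genes, and the other 49 regions lay inside genes or beside them. The sequences of 5 start regions are shown because the results turn on them. Cox5a, Ndufa9 and Atp5md had start regions that differed between groups. Ndufa11 had the smallest p for the interaction, and Atp5j had the highest counts. Atp5j was picked after its values were seen. Each line gives the 250 bases before the RefSeq start in GRCm38.p6, read 5′ to 3′ on the strand of the gene. Capitals mark matches, on either strand, to 6 motifs: the NRF1 core GCGCATGC, the ETS core CCGGAAG, the YY1 core AAGATGGC, the cAMP response element TGACGTCA, the CCAAT box and the GC box GGGCGG. NRF1, the ETS factor GABP and YY1 are known regulators of nuclear genes for mitochondrial proteins.
Cox5a, chr9:57520982-57521231, plus strand: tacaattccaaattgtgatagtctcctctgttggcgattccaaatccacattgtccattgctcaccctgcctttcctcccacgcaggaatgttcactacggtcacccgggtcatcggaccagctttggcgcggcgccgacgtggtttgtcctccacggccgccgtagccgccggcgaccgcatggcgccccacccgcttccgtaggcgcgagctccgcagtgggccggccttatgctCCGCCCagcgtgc
Ndufa9, chr6:126849145-126849394, minus strand: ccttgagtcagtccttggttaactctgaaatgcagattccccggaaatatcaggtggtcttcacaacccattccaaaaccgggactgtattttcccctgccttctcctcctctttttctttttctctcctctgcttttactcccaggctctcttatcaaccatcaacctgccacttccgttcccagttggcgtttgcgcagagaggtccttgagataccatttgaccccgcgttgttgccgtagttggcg
Atp5md, chr19:47090648-47090897, minus strand: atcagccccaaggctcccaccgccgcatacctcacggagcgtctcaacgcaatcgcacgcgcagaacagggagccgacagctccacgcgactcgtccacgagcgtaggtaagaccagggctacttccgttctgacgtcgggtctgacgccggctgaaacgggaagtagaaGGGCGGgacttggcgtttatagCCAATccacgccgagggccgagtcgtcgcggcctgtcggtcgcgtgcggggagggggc
Ndufa11, chr17:56717512-56717761, plus strand: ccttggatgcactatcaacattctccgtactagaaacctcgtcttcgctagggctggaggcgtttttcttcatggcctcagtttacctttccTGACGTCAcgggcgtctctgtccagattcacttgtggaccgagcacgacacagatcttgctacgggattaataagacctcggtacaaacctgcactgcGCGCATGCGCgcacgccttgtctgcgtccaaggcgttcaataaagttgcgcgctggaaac
Atp5j, chr16:84834977-84835226, minus strand: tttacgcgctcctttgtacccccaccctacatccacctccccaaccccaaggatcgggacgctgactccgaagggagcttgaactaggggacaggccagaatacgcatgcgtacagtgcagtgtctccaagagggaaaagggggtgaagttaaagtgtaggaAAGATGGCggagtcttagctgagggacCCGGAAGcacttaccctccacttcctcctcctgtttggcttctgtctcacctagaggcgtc

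Cox5a held a GC box from 13 to 8 bases before the start. Ndufa9 held none of the 6 motifs in the stretch printed, and its YY1 core lay 30 to 37 bases into the transcript, counting the start as 1. Atp5md held a GC box and a CCAAT box, and an ETS core from base 3 to 9. Ndufa11 held a cAMP response element and a pair of overlapping NRF1 cores on opposite strands, which form the palindrome seen in capitals. The Atp5j window held a YY1 core and an ETS core. RefSeq gives Atp5j a further start, whose window is not printed.

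The promoter table held 70 of the 87 genes. Of these, 10 (14.3%) held the NRF1 core, against 3.94% of 17492 protein-coding genes and 6.25% of the 9378 with an accessible promoter window. The YY1 core was also found in 10 (14.3%), against 3.57% and 5.34%. The shares of these genes were 24.3% for the ETS core, against 13.0% and 21.1%, and 5.71% for the cAMP response element, against 2.54% and 3.81%. The CCAAT box was found in 42.9%, against 42.3% and 43.3%. The GC box was found in 40.0% of them, below the 49.2% of all protein-coding genes and the 71.7% of those with an accessible promoter. Their median GC content was 57.8%, against 57.3% for all and 62.7% for the accessible promoters. These are counts of letters in a fixed window and were given no test. Motifs of different kinds overlapped in 1 gene, Ndufs3, where a GC box ran into an ETS core. A match does not show that a factor binds.

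No gene held both the NRF1 core and the YY1 core. The genes with the NRF1 core were Atp5g2, Atp5k, Atp5l, Cox6a1, Ndufa6, Ndufa8, Ndufa11, Sdhb, Uqcr11 and Uqcrc1, so all 5 complexes were among them. The stretches of 6 of them are aligned here, with the core in capitals and 10 bases on either side, so that the flanks can be compared and to show how the core is read on either strand. Read as GCATGCGC, as in Ndufa6 and Sdhb, it lies on the opposite strand alone. In Atp5g2, Atp5k, Cox6a1 and Uqcrc1 both strands match: the capitals mark the match on the gene's strand, and the opposite match begins and ends 2 bases later.
Atp5g2, chr15:102671072-102671099, minus strand: ggctccggccGCGCATGCgcagagcctt
Atp5k, chr5:108434432-108434459, minus strand: tttcactgcgGCGCATGCgcctttctgg
Cox6a1, chr5:115349103-115349130, minus strand: caggaacgggGCGCATGCgcgctctcgc
Ndufa6, chr15:82354357-82354384, minus strand: ccgcggtagaGCATGCGCattgcagagc
Sdhb, chr4:140961207-140961234, plus strand: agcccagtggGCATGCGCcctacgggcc
Uqcrc1, chr9:108936668-108936695, plus strand: actccgctctGCGCATGCgcagcgcggc

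The genes with the YY1 core were Atp5j, Atp5j2, Atp5pb, Ndufa3, Ndufa9, Ndufb8, Ndufc1, Ndufs4, Ndufs6 and Ndufs7, thus 7 of complex I and 3 of complex V. The core lay wholly after the start in 8 of the 10 genes, against 49.0% of the 624 protein-coding genes that hold it. Those 8 matches fell between bases 23 and 46 of the transcript. The core read AAGATGGC on the gene's own strand in 9 of the 10, against 66.2% of the 624. For the NRF1 core the order was the opposite, with 8 of 10 wholly before the start, close to the 82.0% of 689 genes. The 5 stretches below show the YY1 core shortly after the start, with 10 bases on either side as far as the window reaches. The core holds the letters of a start codon, and whether translation begins there was not tested.
Ndufa3, chr7:3617385-3617412, plus strand: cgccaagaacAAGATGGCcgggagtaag
Ndufa9, chr6:126849098-126849125, minus strand: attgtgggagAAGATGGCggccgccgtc
Ndufc1, chr3:51408916-51408943, minus strand: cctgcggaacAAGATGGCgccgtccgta
Ndufs6, chr13:73328433-73328459, minus strand: ggtcaccggcAAGATGGCggcggtgct
Ndufs7, chr10:80249463-80249490, plus strand: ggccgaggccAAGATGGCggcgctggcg

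The start regions were well open in all 4 groups. Their median level over the 10 libraries was 42.4 CPM per kb of region, with quartiles of 26.5 and 70.8. The 10147 promoter regions of all genes had a median of 37.7 CPM per kb, and all 77076 regions one of 13.3. The other regions of these genes had a median of 13.6 CPM per kb. By complex, the median start region level was 34.7 CPM per kb for complex I, 59.1 for complex II, 47.9 for complex III, 33.5 for complex IV and 54.0 for complex V.

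**Figure D1:**
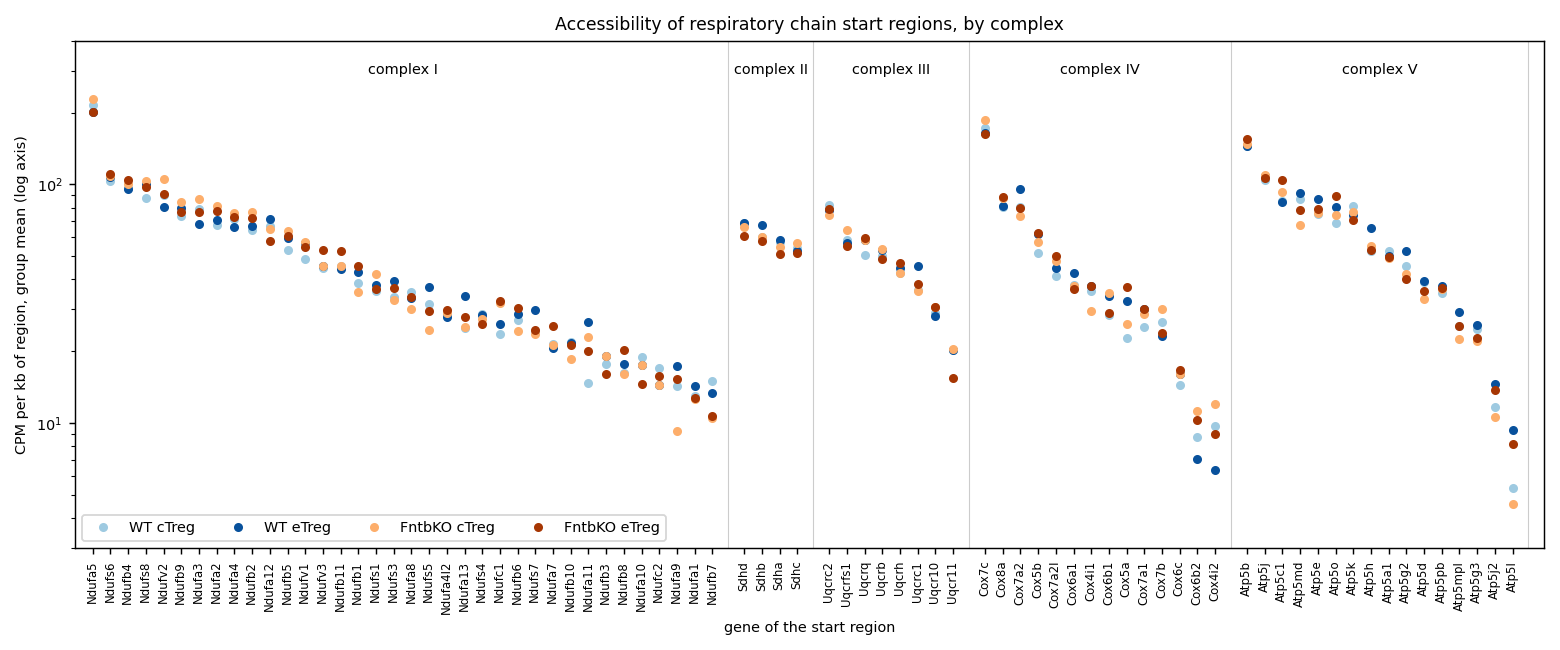
Mean accessibility of the 78 start regions in CPM per kb on a log axis, by gene and complex, with a point for each of the 4 groups. The 4 group means lie close together for most genes, while levels between genes run from 6.97 CPM per kb for Atp5l to 211 for Ndufa5 over all libraries.

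Within complex I, the highest level per kb was at Ndufa5, an accessory subunit of the arm that reaches into the matrix. Ndufa5 had 132 ± 22.0 CPM in WT cTreg and 124 ± 10.9 in WT eTreg (SD, n = 3), and 139 ± 26.9 and 124 ± 11.6 in FntbKO cTreg and eTreg (SD, n = 2). These are levels of the region, not per kb, and the groups overlap. In complex IV the highest was Cox7c, a small subunit of the membrane part, at 171 CPM per kb. In complex V it was Atp5b, the catalytic beta subunit, at 147 CPM per kb. Atp5b also varied least, with a coefficient of variation of 5.11% over the 10 libraries, against a median of 12.2% for the 78 start regions. By counts alone the order began with Atp5j (coupling factor 6, in the stalk) at 148 CPM, followed by Ndufa5, Cox7c, Ndufv2 and Atp5b. The Atp5j region is 1383 bp wide and also holds the start of Gabpa, the DNA-binding subunit of GABP, so its level per kb was 107 CPM.

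The lowest start regions by CPM were Atp5l at 1.90, Cox4i2 at 2.99, Ndufa11 at 5.28, Cox6b2 at 6.30 and Ndufb10 at 7.11. Atp5l, a membrane subunit of ATP synthase, had between 4 and 26 counts per library there, and its coefficient of variation of 43.2% was the highest of the 78. For 7 genes no region was listed: Ndufa6, Ndufb4b and Ndufb4c of complex I, Cox6a2, Cox8b and Cox8c of complex IV, and Atp5g1 of complex V. Atp5g1 is 1 of the genes for subunit c, and the other genes for it, Atp5g2 and Atp5g3, had start regions of 46.0 and 24.2 CPM per kb. Cox7b2, known from testis, had a region of 1.10 CPM but no start region by the rule.

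Several subunits come in a form used by most tissues and a form known from particular tissues or conditions. Cox4i1 had a start region of 35.4 ± 4.14 CPM per kb (SD, n = 10 libraries), and Cox4i2, known from lung, had 9.04 ± 3.86. Cox6b1 had 31.6 ± 4.05 CPM per kb and Cox6b2, known from testis, had 9.05 ± 3.02. The values were 83.5 ± 10.1 for Cox7a2 and 28.4 ± 3.50 for Cox7a1, the form of heart and muscle. They were 71.4 ± 8.82 for Ndufa4 and 28.7 ± 3.64 for Ndufa4l2, a gene known to be induced by low oxygen. The Ndufa4l2 region, found by the gene end, lies 654 bp outside the gene and near Stac3, and the strongest region inside the gene was at 54.0 CPM per kb. In each of these 4 pairs the start region of the general form was higher in 10 of 10 libraries. Ndufa4 carries the name of complex I and is grouped with it here, though its protein is now known as a subunit of complex IV. No region was listed for Cox6a2 and Cox8b, the muscle forms, or for Cox8c, known from testis, while Cox6a1 and Cox8a had 39.0 and 83.8 CPM per kb.

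Many of the start regions also served a neighbour on the other strand. Among 65 genes with an accessible promoter window in the table, 21 (32.3%) shared the region with the promoter window of a gene on the opposite strand, against 14.9% of 9378 protein-coding genes. The partner was itself a gene of mitochondria for Sdhd, which faces Timm8b of the import machinery, and for Ndufb5, which faces Mrpl47 of the mitochondrial ribosome. Other pairs were Ndufa7 with Rps28, Sdha with Ccdc127, Uqcrh with Lrrc41, Atp5md with Pdcd11 and Ndufa11 with Vmac. Accessibility of such a region cannot be assigned to either gene. In addition, fewer cells with an open region and less opening per cell cannot be told apart in these bulk samples.

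The summed level of the 78 start regions ran from 2622 to 2899 CPM over the 10 libraries. It was 2830, 2622 and 2653 CPM in WT cTreg 1 to 3 and 2899, 2667 and 2851 CPM in WT eTreg 1 to 3. It was 2878 and 2694 CPM in FntbKO cTreg and 2846 and 2721 CPM in FntbKO eTreg. The ranges of all 4 groups overlap. By replicate number, the sums ran from 2830 to 2899 CPM in replicate 1 of the 4 groups and from 2622 to 2721 in replicate 2. Replicate 3, present in WT only, had 2653 and 2851 CPM. That split by number was seen in the sums and was not tested. For complex II the sums were 154 to 169 CPM in WT cTreg, 164 to 175 in WT eTreg, 159 to 163 in FntbKO cTreg and 150 to 151 in FntbKO eTreg. The FntbKO eTreg libraries thus lay below those of the other groups, a pattern picked after the sums were seen and given no test.

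Differences between subsets were tested with edgeR over all regions. In WT cells, 0 of the 124 member regions tested were called between eTreg and cTreg at an adjusted p under 0.05, where 3.44% of all 76216 tested regions were called. An unadjusted p under 0.05 was found for 11 of the 124 (8.87%), against 18.05% of all regions and 11.7% of promoter regions. In FntbKO cells 0 of 124 were called, against 1.36% of all regions. There 6 (4.84%) had an unadjusted p under 0.05, against 15.3% of all regions and 8.39% of promoter regions. The DESeq2 and limma-voom tests each gave a count of 0 as well. The edgeR count in WT cells was not stable: it was 1 without WT cTreg replicate 1 and 2 without WT cTreg replicate 2. Over all regions 774 and 3664 were called in these 2 fits, against 2619 with every library. With the replicate number added to the fit of all libraries, the member count was 2, where 4141 of all regions were called. The 3 regions not tested, 1 each of Atp5c1, Ndufa4 and Ndufb8, had mean levels below 1 CPM.

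In the comparisons of genotype, 0 of 124 member regions were called in cTreg, against 0.568% of all regions, and 0 of 124 in eTreg, against 0.350%. At an unadjusted p under 0.05 there were 8 (6.45%) and 9 (7.26%). The shares were 12.4% and 12.2% of all regions, and 12.2% and 10.5% of promoter regions. The counts of 0 called do not show that no member region changed in either subset, and interval limits are given below. For the interaction, which asks whether the subset difference depends on genotype, 0 of 124 were called, and the share called over all regions was 0. An unadjusted p under 0.05 was found for 1 of the 124 (0.806%), against 4.07% of all regions and 2.06% of promoter regions. DESeq2 and limma-voom called 0 in these 3 comparisons too.

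The intervals show how large a change could have been missed at the start regions. For eTreg against cTreg in WT cells, 75 of 78 start regions (96.2%) had a 95% interval wholly within a 2-fold change in either direction. This held for 88.1% of the 10125 tested promoter regions and 51.7% of all tested regions. In FntbKO cells it held for 74 (94.9%), against 83.4% and 41.5%. Between genotypes it held for 73 (93.6%) in cTreg, against 85.8% and 49.6%. In eTreg it held for 74 (94.9%), against 85.5% and 47.2%. In all 4 comparisons together, 72 of the 78 stayed within 2-fold. The exceptions were Ndufa9, Ndufa11, Uqcr11, Cox4i2, Cox6b2 and Atp5l, whose mean start region levels were 12.9 CPM or less. A limit of 1.5-fold held for 60, 54, 59 and 53 of the 78 in the same order. Of the 46 other member regions tested, the 2-fold limit held for only 25, 21, 25 and 22. A 2-fold change was thus not excluded at many of those. A narrow interval needs many counts as well as little change, and the start regions had more counts than most regions.

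**Figure D2:**
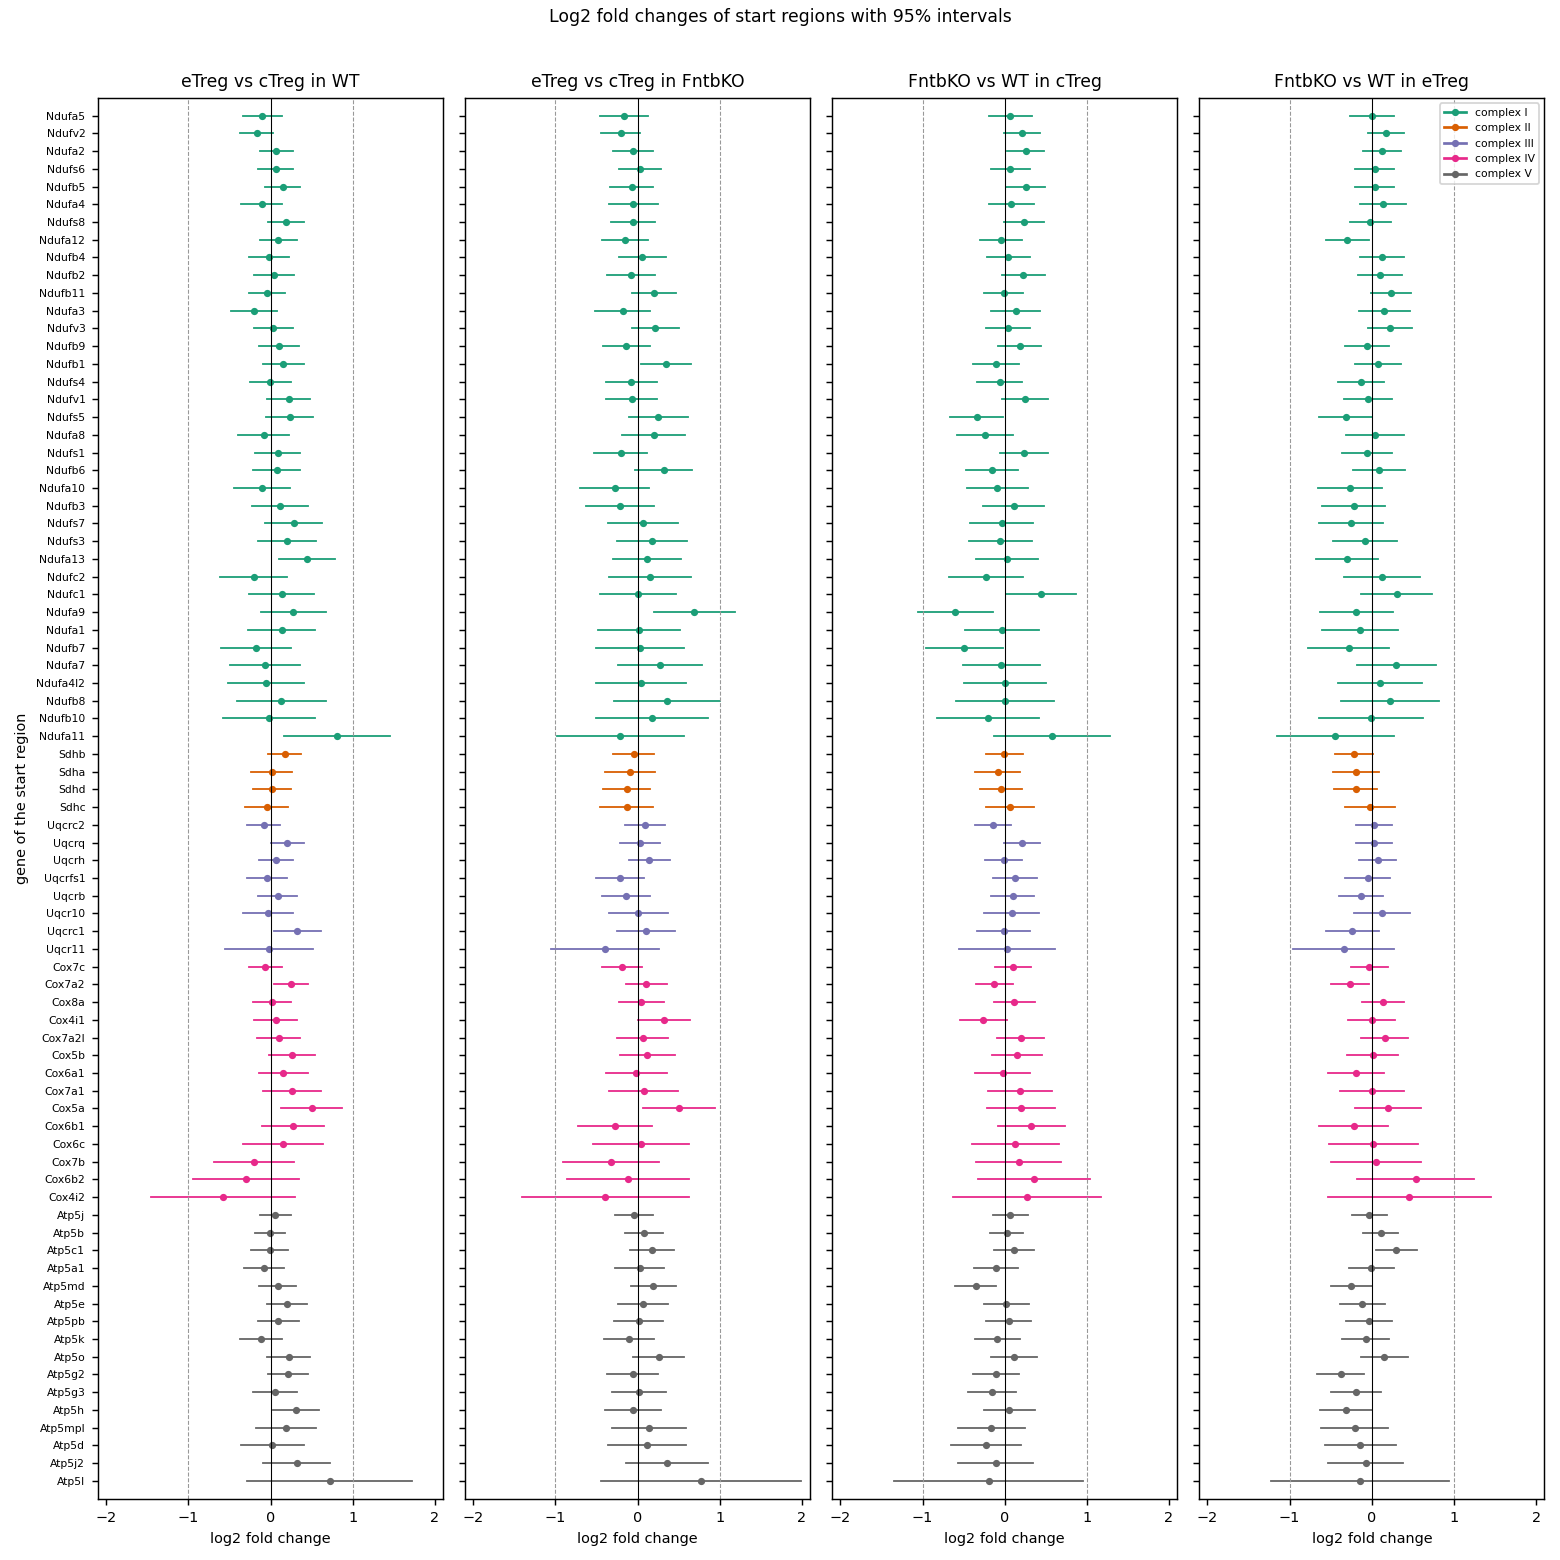
Log2 fold changes of the 78 start regions with 95% intervals in the 4 comparisons, coloured by complex and ordered by level within each complex, with dashed lines at 2-fold. Most intervals span 0 and stay between the dashed lines, and the widest belong to Atp5l and Cox4i2.

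The median log2 fold change of the start regions was 0.07 for eTreg against cTreg in WT cells and 0.03 in FntbKO cells. Between genotypes it was 0.03 in cTreg and -0.02 in eTreg. The medians over the promoter regions of all genes were 0.05, 0.02, 0.00 and -0.03. The median size of the change, regardless of sign, was 0.11, 0.13, 0.11 and 0.14 for the start regions, against 0.13, 0.14, 0.14 and 0.14 for all promoter regions. Over all tested regions it was 0.28, 0.32, 0.27 and 0.28. The genotype comparisons share libraries with the subset comparisons, so these values are not independent.

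**Figure D3:**
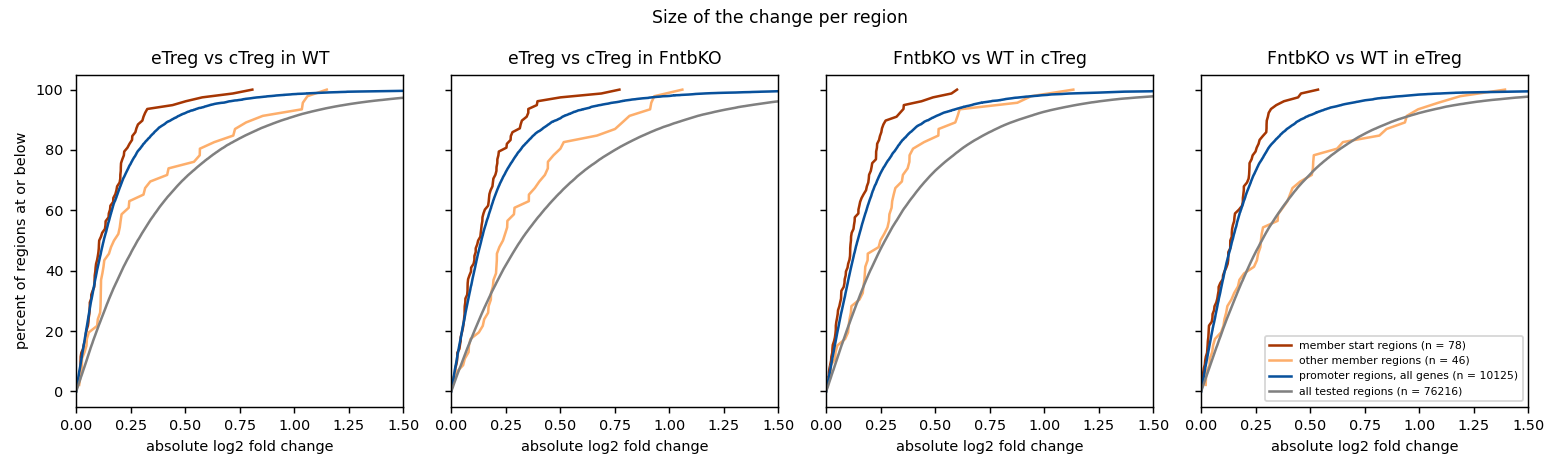
Cumulative share of regions, in percent, at or below a given absolute log2 fold change in each of the 4 comparisons. Start regions of the respiratory chain genes follow the curve for the promoter regions of all genes and lie to the left of the curve for all 76216 tested regions.

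No complex had a called region in these comparisons, and the region with the smallest p of each is given for eTreg against cTreg in WT cells. For complex I it was a region inside Ndufa12, with a log2 fold change of 0.78 (SE 0.24) and an edgeR adjusted p of 0.0730. For complex II it was the start region of Sdhb, the iron-sulfur subunit of succinate dehydrogenase, at 0.17 (SE 0.10). For complex III it was the start region of Uqcrc1, a core protein, at 0.33 (SE 0.14). The start region of Cox5a stood at 0.50 (SE 0.18) for complex IV, and that of Atp5h, the d subunit of the stalk, at 0.31 (SE 0.14) for complex V. The WT groups did not overlap at Ndufa12, Sdhb, Uqcrc1 and Cox5a, and they overlapped at Atp5h. The regions were picked by p in the same comparison, so this adds nothing to the p-values. The edgeR adjusted p-values of Sdhb, Uqcrc1, Cox5a and Atp5h were 0.390, 0.209, 0.123 and 0.225.

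In FntbKO cells the start region of Ndufa9 had a log2 fold change of 0.69 (SE 0.24) between eTreg and cTreg, with an edgeR adjusted p of 0.146. For the other complexes the values were -0.92 for a region inside Sdhb, -0.22 for the start region of Uqcrfs1, the Rieske iron-sulfur protein, 0.50 for the start region of Cox5a and 0.93 for a region at Atp5j2. The regions inside Sdhb and at Atp5j2 were weak, with means of 2.37 and 4.11 CPM, and their values had SEs of 0.51 and 0.42. For genotype in cTreg the smallest p values belonged to the start regions of Ndufa9 at -0.60 (SE 0.22) and Atp5md at -0.35 (SE 0.12). Their edgeR adjusted p-values were 0.239 and 0.197. For complexes II to IV they belonged to a region inside Sdhb at 0.30 (SE 0.43), the start region of Uqcrq at 0.21 and a region beside Cox7a2 at 0.59. The Sdhb value has no stable sign: it was -0.14 without FntbKO cTreg replicate 2 and 0.58 without FntbKO cTreg replicate 1. In eTreg they belonged to a region inside Ndufa9 at -0.94, the start region of Sdhb at -0.22, a region inside Uqcrc2 at -1.39, the region beside Cox7a2 at 0.99 and the start region of Atp5g2 at -0.38. The edgeR adjusted p-values of those 5 were 0.200, 0.442, 0.471, 0.142 and 0.241. The Uqcrc2 region had a mean of only 1.06 CPM, and its value had an SE of 0.79.

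Ranked by size alone, with no call in any case, the extremes among start regions were as follows. They include the weak Atp5l region, which does not reach the RefSeq start of its gene. In WT cells Ndufa11 stood at 0.81, Atp5l at 0.72 and Cox5a at 0.50 between eTreg and cTreg, and Cox4i2 at -0.58, Cox6b2 at -0.30 and Ndufc2 at -0.21. In FntbKO cells the highest were Atp5l at 0.77, Ndufa9 at 0.69 and Cox5a at 0.50, and the lowest Uqcr11 at -0.40, Cox4i2 at -0.39 and Cox7b at -0.32. Between genotypes in cTreg they were Ndufa11 at 0.57, Ndufc1 at 0.44 and Cox6b2 at 0.36, and Ndufa9 at -0.60, Ndufb7 at -0.49 and Atp5md at -0.35. In eTreg they were Cox6b2 at 0.54, Cox4i2 at 0.46 and Ndufc1 at 0.31, and Ndufa11 at -0.44, Atp5g2 at -0.38 and Uqcr11 at -0.34.

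Ndufa11 encodes a membrane subunit of complex I. Its start region (chr17:56717639-56717890) was at 3.63, 2.41 and 5.07 CPM in WT cTreg and at 8.19, 5.38 and 6.45 in WT eTreg. In FntbKO it was at 7.11 and 4.47 CPM in cTreg and 6.01 and 4.03 in eTreg. The WT groups did not overlap and the FntbKO groups did, in a region picked for its small interaction p. The interaction was -1.02 (SE 0.49) on the log2 scale, with an unadjusted p of 0.0474 and an adjusted p of 0.9999 in edgeR, so it was not called. The other extremes of the interaction were Cox6b1 at -0.54 and Uqcr11 at -0.37, and Ndufa9 at 0.41, Ndufc2 at 0.35 and Ndufa7 at 0.34. The smallest p of complexes II, III and V belonged to the start regions of Sdhb at -0.22, Uqcrb at -0.23 and Atp5h at -0.36.

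The comparisons averaged over the other factor use all 10 libraries. For eTreg against cTreg averaged over genotypes, 4 of the 124 member regions (3.23%) were called, all higher in eTreg, where 11.0% of all tested regions were called. Over the promoter regions of all genes the share was 5.22%, and of the 78 start regions 2 were called (2.56%). For FntbKO against WT averaged over subsets, 3 of 124 (2.42%) were called, 2 higher and 1 lower in FntbKO, where 3.99% of all regions were called. Over promoter regions the share was 3.58%, and 1 of the 78 start regions was called (1.28%). By complex, 3 of the 4 regions higher in eTreg belonged to complex I and 1 to complex IV, and the 3 genotype calls belonged to complexes I, IV and V. The subset count was 0 without FntbKO cTreg replicate 1 or without FntbKO eTreg replicate 2, 2 without WT cTreg replicate 3, WT eTreg replicate 3 or FntbKO eTreg replicate 1, and 6 regions at most were called with any 1 library left out. Over all regions the subset calls also fell, from 8367 to 2978 and 2990 in the first 2 of these fits, and ran from 2978 to 10255 over the 10 fits. The genotype count was 0 to 2 with any 1 library left out, where calls over all regions ran from 1170 to 3435, against 3043 with every library. Complexes II and III had no called region. Their smallest p in the averaged comparisons was 0.0635, at the start region of Uqcrc1 between subsets, with an edgeR adjusted p of 0.226. Between subsets complex V, which had no call there, had its smallest p at the start region of Atp5o, at 0.24 (edgeR adjusted p 0.120). Between genotypes complexes II and III had their smallest p at Sdha, at -0.14, and inside Uqcrc2, at -0.82, and between subsets complex II had it inside Sdhb, at -0.58. The regions inside Uqcrc2 and Sdhb had means of 1.06 and 2.37 CPM, and these 2 values had SEs of 0.52 and 0.33.

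By size, the start regions with the highest averaged subset differences were Atp5l at 0.74, Cox5a at 0.50 and Ndufa9 at 0.48, and the lowest were Cox4i2 at -0.49, Cox7b at -0.26 and Cox6b2 at -0.21. For the averaged genotype difference they were Cox6b2 at 0.45, Ndufc1 at 0.37 and Cox4i2 at 0.37, and Ndufa9 and Ndufb7, both at -0.39, and Ndufs5 at -0.33. Of these 12 values, those of Cox5a and Ndufa9 between subsets passed the edgeR test.

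A region inside Ndufs4 (chr13:114304681-114305248) rose the most in eTreg. Ndufs4 encodes an accessory subunit of the arm of complex I that takes up electrons from NADH, and its loss in humans and mice causes Leigh syndrome. The region was at 1.95, 4.82 and 3.38 CPM in WT cTreg and at 6.02, 7.17 and 7.81 CPM in WT eTreg. The FntbKO libraries had 2.19 and 4.67 CPM in cTreg and 4.41 and 10.0 CPM in eTreg. Every WT eTreg library lay above every WT cTreg library, while the lower FntbKO eTreg library lay below the higher FntbKO cTreg library. The averaged log2 fold change was 1.06 (SE 0.27) with an edgeR adjusted p of 0.0121. It was not called without FntbKO cTreg replicate 1 (0.87, adjusted p = 0.0787) or without FntbKO eTreg replicate 2 (0.68, adjusted p = 0.235). The start region of Ndufs4, at 31.4 CPM, was not called.

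The start region of Cox5a (chr9:57521022-57521560) also rose in eTreg. Cox5a encodes a nuclear subunit of cytochrome c oxidase that binds its catalytic core on the matrix side. The region was at 14.8, 9.81 and 12.1 CPM in WT cTreg and at 18.2, 15.5 and 18.8 CPM in WT eTreg. The FntbKO values were 12.4 and 15.5 CPM in cTreg and 19.6 and 20.3 CPM in eTreg. All 5 eTreg libraries lay above all 5 cTreg libraries. The log2 fold change was 0.50 (SE 0.14), with an edgeR adjusted p of 0.0204, and the values within WT and within FntbKO were 0.50 (SE 0.18) and 0.50 (SE 0.21). The call was lost without FntbKO cTreg replicate 1 (0.43, adjusted p = 0.119) and without FntbKO eTreg replicate 2 (0.49, adjusted p = 0.0955). Without both libraries that stood apart, WT cTreg replicate 2 and FntbKO cTreg replicate 1, it was 0.37 with an edgeR adjusted p of 0.143.

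The start region of Ndufa9 (chr6:126848460-126849357) was called higher in eTreg. Ndufa9 encodes a subunit near the site where complex I reduces ubiquinone. The region was at 11.7, 15.1 and 11.6 CPM in WT cTreg and at 13.7, 15.1 and 17.6 CPM in WT eTreg. It was at 7.39 and 9.21 CPM in FntbKO cTreg and at 15.2 and 12.2 CPM in FntbKO eTreg. The WT groups overlapped, the FntbKO groups did not, and the FntbKO cTreg libraries were the 2 lowest of the 10 libraries. The averaged log2 fold change was 0.48 (SE 0.15), with an edgeR adjusted p of 0.0416. The change was 0.28 (SE 0.19) in WT and 0.69 (SE 0.24) in FntbKO, and the interaction between them was 0.41 (SE 0.31), with an edgeR adjusted p of 0.9999.

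A region inside Ndufa12 (chr10:94211701-94212095) was the last of the 4 called. Ndufa12 encodes another accessory subunit of the NADH-oxidising arm. The region was at 9.22, 5.51 and 5.70 CPM in WT cTreg and at 14.5, 9.76 and 10.9 CPM in WT eTreg. The FntbKO libraries had 5.74 and 7.65 CPM in cTreg and 8.41 and 9.25 CPM in eTreg. Subsets did not overlap within either genotype, though WT cTreg replicate 1 lay above an eTreg library of FntbKO. The log2 fold change was 0.58 (SE 0.19), with an edgeR adjusted p of 0.0492. The Ndufa9 call held without WT eTreg replicate 1, WT cTreg replicate 2 or FntbKO cTreg replicate 2 and was lost without any other library. That of Ndufa12 held without WT cTreg replicate 1, WT eTreg replicate 2 or FntbKO cTreg replicate 2 and was lost without any other. The edgeR adjusted p ranged from 0.0207 to 0.182 for Ndufa9 and from 0.0201 to 0.202 for Ndufa12 over these 10 fits. DESeq2 gave 0.0669 for Ndufa12.

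Between genotypes, a region beside Cox7a2 (chr9:79772132-79772572) was called higher in FntbKO. It lies 710 bp outside the gene and within 1 kb of Tmem30a, so it cannot be assigned to Cox7a2 alone. Cox7a2 encodes the widely used form of a small complex IV subunit. The region was at 2.79, 4.65 and 4.75 CPM in WT cTreg and at 4.22, 4.58 and 4.41 CPM in WT eTreg. It was at 6.29 and 6.03 CPM in FntbKO cTreg and at 8.01 and 9.45 CPM in FntbKO eTreg. Every FntbKO library lay above every WT library. The log2 fold change was 0.79 (SE 0.21), with an edgeR adjusted p of 0.0315, and with 1 library left out it was 0.69 to 0.87 (edgeR adjusted p from 0.0355 to 0.136). The call held without WT cTreg replicate 2, WT cTreg replicate 3 or WT eTreg replicate 2 and was lost without any other library. The start region of Cox7a2 itself, at 60.3 CPM, was not called.

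A region 343 bp outside Ndufa11 (chr17:56716628-56717419), which overlaps the promoter window of Vmac, was also called higher in FntbKO. It was at 46.5, 51.8 and 48.2 CPM in WT cTreg and at 48.4, 43.6 and 49.7 CPM in WT eTreg. In FntbKO it was at 56.9 and 63.0 CPM in cTreg and at 52.1 and 61.0 CPM in eTreg. The genotypes did not overlap, although the lowest FntbKO library was close to the highest WT library. The log2 fold change was 0.29 (SE 0.08), with an edgeR adjusted p of 0.0424. The call held without WT cTreg replicate 2 and was lost without any other library, with edgeR adjusted p from 0.0403 to 0.225. DESeq2 gave an adjusted p of 0.0550.

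The start region shared by Atp5md and Pdcd11 (chr19:47090536-47091044) was the only member region called lower in FntbKO. Atp5md encodes a small membrane subunit of ATP synthase that helps to join ATP synthases into dimers, and Pdcd11 a protein of ribosome assembly. The region was at 46.1, 43.4 and 42.9 CPM in WT cTreg and at 50.4, 42.4 and 47.7 CPM in WT eTreg. In FntbKO it was at 32.4 and 36.2 CPM in cTreg and at 41.7 and 37.4 CPM in eTreg. All 4 FntbKO libraries lay below all 6 WT libraries. The log2 fold change was -0.30 (SE 0.09), with an edgeR adjusted p of 0.0440. The call held without WT eTreg replicate 2 and was lost without any other library, with edgeR adjusted p from 0.0300 to 0.186, and DESeq2 gave an adjusted p of 0.0530.

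**Figure D4:**
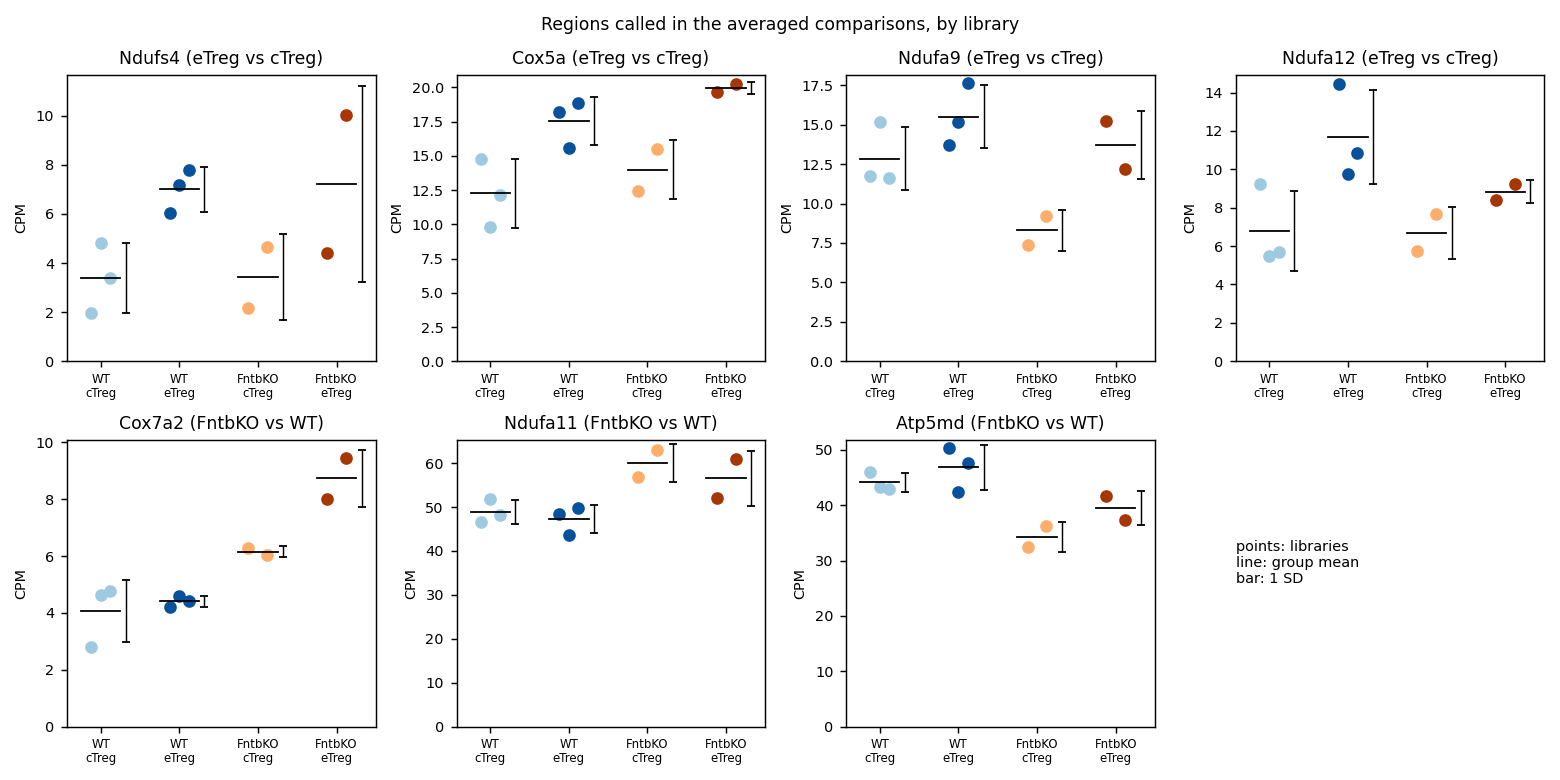
CPM per library of the 7 regions called in the averaged comparisons, with the mean (line) and SD (bar) of each of the 4 groups on axes that start at 0. At Cox5a all eTreg points lie above all cTreg points, and at Cox7a2, Ndufa11 and Atp5md the FntbKO and WT points do not overlap. The regions were picked by these calls, so the separation adds nothing to them.

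**Figure D5:**
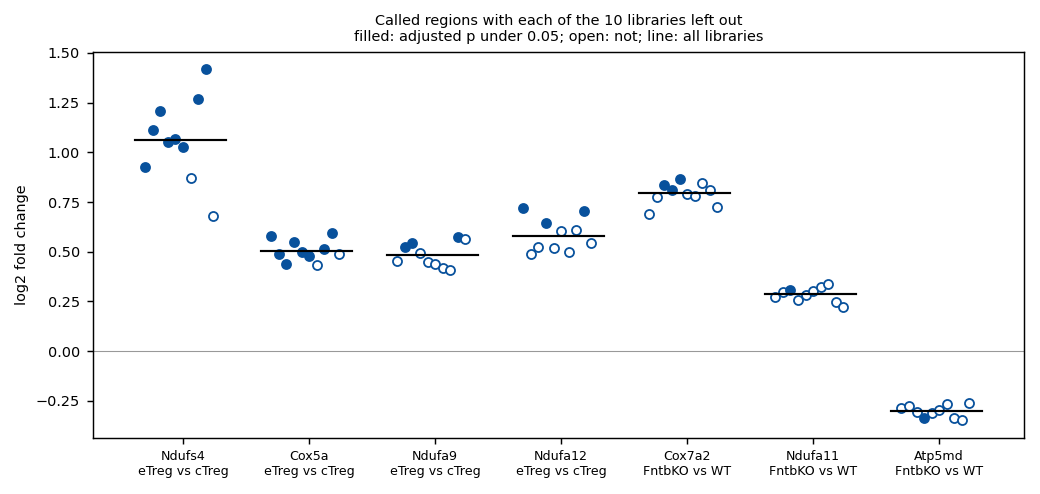
Log2 fold change of the same 7 regions with each of the 10 libraries left out in turn, filled where the edgeR adjusted p stayed under 0.05, with a line at the value from all libraries. The direction is the same in every fit, while the call held in 8 of 10 fits for Ndufs4 and Cox5a, 3 of 10 for Ndufa9, Ndufa12 and Cox7a2, and 1 of 10 for Ndufa11 and Atp5md.

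Of the 47 genes listed as assembly factors of the chain, all had regions, and 102 regions were tested. In WT cells 2 were higher and 2 lower in eTreg (3.92%, against 3.44% of all regions), and averaged over genotypes 5 were higher and 4 lower (8.82%, against 11.0%). Between genotypes 1 was higher in FntbKO cTreg (0.980%, against 0.568%), and averaged over subsets 3 were higher and 3 lower in FntbKO (5.88%, against 3.99%). No region was called in FntbKO cells between subsets, between genotypes in eTreg or for the interaction. Of the 50 tested regions of 20 genes for electron carriers and coenzyme Q synthesis, 1 was called (2.00%, against 11.0%), lower in eTreg in the averaged comparison. Of the 59 tested regions of regulators of mitochondrial gene expression, which belong to 18 of 20 listed genes, 2 were higher and 1 lower in eTreg in the averaged comparison (5.08%, against 11.0%). The 54 regions of 18 genes of the tricarboxylic acid cycle had 1 higher and 3 lower in eTreg in the averaged comparison (7.41%, against 11.0%). Between genotypes 1 was higher in FntbKO eTreg (1.85%, against 0.350%), and 4 were higher in FntbKO in the averaged comparison (7.41%, against 3.99%), all in 1 gene, Suclg2. The medians of the log2 fold changes of these 4 lists lay between -0.05 and 0.07 in all 7 comparisons.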

How the data were processed

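The authors deposited a table of raw read counts, whole numbers without normalization, for 77076 regions in 10 libraries. The submitters' processing notes list bedtools, MACS2 2.1.1, SAMtools, Picard 2.9.4 and Trimmomatic 0.36, and name GRCm38 and mm10 as builds. An aligner is not given in the sources used here. Between 66.7% and 79.2% of the region counts of a library were even numbers, so halved counts were tried as an alternative. The table does not state whether its coordinates begin at 0 or 1.

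The edgeR package (4.0.16, under R 4.3.3) gave TMM scaling and the quasi-likelihood test, with 1 mean per group, all 10 libraries, robust dispersions and filterByExpr. P-values were adjusted by the method of Benjamini and Hochberg over 76216 regions, and a region was called at an adjusted p under 0.05. Standard errors come from the fit's weights. CPM values are TMM-scaled. DESeq2 1.42.0 and limma 3.58.1 served as alternatives, and the script was tested on simulated data. Gene spans and promoter sequences came from RefSeq tables of GRCm38.p6, and 70 of 87 genes matched in the latter. With no genome sequence or exon annotation used here, exon and intron were not told apart.

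The members and gene lists were chosen with earlier results of these data known. Named were every called region, the region with the smallest p of each complex without a call, the 3 highest rises and 3 largest falls among start regions of each comparison, the 5 highest and 5 lowest start regions, genes with no region, Fntb and the markers. Some items that this rule names are not reported here.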

Additional observations from a re-analysis of the deposited data

How the results depend on the processing

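The 7 counts of called regions were recomputed under each alternative, and using only the groups compared gave no value for the interaction and the averaged comparisons. Total counts, DESeq2 size factors, no filter, a filter at 1 CPM, limma-voom, cyclic loess, halved counts and only the groups compared kept each count they gave within 1.5 times. DESeq2 called 1 region between genotypes averaged over subsets, against 3, and over all regions it called 2685, against 3043. Counting only regions that overlap the gene also gave 1, and within 5 kb the averaged subset comparison had 10 calls and the comparison in FntbKO cells 1. The wider window takes in more regions, and the shares called over all regions, 11.0% and 1.36% in these 2 comparisons, do not depend on it. Leaving out 1 library gave 0 to 6 calls for the averaged subset comparison, 0 to 2 for the averaged genotype comparison and 0 to 2 for the subsets in WT cells. Without WT cTreg replicate 2 and FntbKO cTreg replicate 1 together these counts were 1, 0 and 3. In these fits the calls over all regions changed too. The cause was not tested. A region inside Sdhb (chr4:140978285-140978605) turned from 0.30 to -0.14 for genotype in cTreg without FntbKO cTreg replicate 2 and stood at 0.58 without FntbKO cTreg replicate 1, none of them called.

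Libraries with the same replicate number were correlated between -0.08 and 0.18 over 13 pairs, with 5 above 0.1. Pairs of the same genotype were all positive, from 0.03 to 0.18. The 2 FntbKO pairs have the same value, which follows from groups of 2 libraries. Pairs with different numbers lay between -0.18 and 0.099, so none of those passed 0.1. The labels give no shared origin for a number and not every pair passed 0.1, so the numbers were not taken to pair the libraries. The summed level of the start regions, however, was higher in replicate 1 than in replicate 2 in every group. A shared origin of libraries with the same number was not tested. With a replicate block the calls over all regions rose from 2619 to 4141 between subsets in WT cells and from 1033 to 2480 in FntbKO cells. They rose from 8367 to 10348 between subsets averaged over genotypes and from 3043 to 3611 between genotypes averaged over subsets. Among member regions, 2 were called between subsets in WT cells with the block, against 0 without it. There were 5 between subsets averaged over genotypes, against 4, and 4 between genotypes averaged over subsets, against 3. Groups of 2 libraries and few counts limit the weak start regions.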

Other observations

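Among the assembly factors, Tmem126b encodes a factor for the membrane arm of complex I. The weaker of its 2 regions (chr7:90473490-90473923), at 29.8 CPM against 98.8 for the other, was higher in FntbKO cTreg. The log2 fold change was 0.69 (SE 0.15, edgeR adjusted p 0.0258). Averaged over subsets the value was 0.60 (SE 0.11, edgeR adjusted p 0.00193). In the same comparison 1 of 3 regions at Sdhaf1, an assembly factor of complex II, rose by 0.37 (SE 0.09). At Tmem70, of ATP synthase, 1 of 2 regions rose by 1.17 (SE 0.27). That region had 3.75 CPM, and the stronger region there, at 18.2 CPM, was not called. The only region at Cox11, a copper chaperone of complex IV, fell by 0.38 (SE 0.08) in that comparison. Single genes held regions that went in opposite directions, as did Ndufaf2, a complex I assembly factor with 12 regions. There 1 region fell by 1.18 (SE 0.21) and another, at 2.24 CPM, rose by 1.58 (SE 0.40) in eTreg averaged over genotypes. In Cox10, which makes heme for complex IV, 2 of 13 regions fell in eTreg, by 0.67 (SE 0.16) and 0.85 (SE 0.21). Another region there fell by 0.87 (SE 0.15) in FntbKO.

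All called regions of the tricarboxylic acid cycle list lay in 1 gene, Suclg2, a subunit of succinyl-CoA ligase. In FntbKO averaged over subsets 4 of its 19 regions rose, by 0.42 to 1.52, and in eTreg averaged over genotypes 3 fell and 1 rose. The rise of 1.52 was at a region of 1.79 CPM, where the strongest region of the gene had 63.2 CPM. Among the regulators, 1 of 10 regions at Ppargc1b rose by 1.17 (SE 0.30) in eTreg averaged over genotypes. That region had 3.56 CPM, against 48.6 for the strongest there. At Gabpb1, the partner of Gabpa in GABP, 1 of 8 regions rose by 0.46 (SE 0.15) in the same comparison, at 17.5 CPM against 46.4 for the strongest. The strongest of 9 regions at Ppargc1a, at 20.3 CPM, fell by 0.42 (SE 0.12) there. Both Ppargc1a and Ppargc1b encode coactivators of mitochondrial genes. At Pdss2, of coenzyme Q synthesis, 1 of 5 regions fell by 0.52 (SE 0.16) in eTreg, at 10.1 CPM against 22.6 for the strongest. These genes were picked because their regions were called, with edgeR adjusted p-values between 0.000628 and 0.0478.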
